A study of Mus musculus with 6 samples.

Results

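The genes described here encode the outer layer of the Wnt pathway: the Wnt ligands, their Frizzled receptors, the LRP co-receptors, the Ror and Ryk receptors, the R-spondins with their Lgr receptors, and the ubiquitin ligases Znrf3 and Rnf43. They were chosen by a rule on gene symbols: the array's annotation names 43 such genes, among 18193 genes named in all. 84 probe sets measure them, and each gene was represented by its brightest one, by the mean over all arrays. The samples were 6 mouse RNA samples, each on 1 Affymetrix array. 3 were granulosa cell tumors of mice labelled Smad1/5/8 mutant, a genotype that affects the transcription factors through which receptors for bone morphogenetic proteins (BMPs) signal. The controls were 3 samples of granulosa cells, which surround and nourish the oocyte, isolated from wild-type C57BL/6J;129S5/SvEvBrd females aged 21 days. These females had been injected with pregnant mare serum gonadotropin (PMSG), a follicle-stimulating hormone preparation, 44 to 46 hours earlier, and cells of 2 to 3 females were pooled per sample. The sources used here do not state how or in which cells the Smad genes were mutated, nor the strain and age of the tumor mice.

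Wnt proteins are secreted lipid-modified ligands. On the receiving cell a Wnt binds a Frizzled together with Lrp5 or Lrp6, which stabilises beta-catenin and lets it act with TCF/LEF factors, while binding to Ror1, Ror2 or Ryk feeds branches that do not need beta-catenin. R-spondins, through Lgr4, Lgr5 or Lgr6, hold back Znrf3 and Rnf43, which otherwise remove Frizzleds from the cell surface, and so raise the response to Wnt. In the ovary Wnt4 and Rspo1 are known for ovarian differentiation of the fetal gonad, and Fzd4 for the formation of the corpus luteum.

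Where a gene's start site stood in RefSeq's promoter table (build GRCm38.p6), its sequence was read: 29 of the 43 genes had an entry, with 33 start sites among them. The 5 sequences shown are the 250 bases before the start site of the 4 genes with an entry that differed most among those higher in tumors, and of Fzd5, which was lower. They are written 5′ to 3′ in the direction of transcription, and capitals mark matches to the motifs searched.
Rspo1, chr4:124986180-124986429 (plus strand): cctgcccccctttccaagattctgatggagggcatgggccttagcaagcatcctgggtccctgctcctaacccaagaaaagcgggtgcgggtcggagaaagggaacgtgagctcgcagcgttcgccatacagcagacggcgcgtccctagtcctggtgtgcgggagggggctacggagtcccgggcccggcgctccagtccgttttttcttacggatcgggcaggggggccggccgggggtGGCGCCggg
Ror1, chr4:100095541-100095790 (plus strand): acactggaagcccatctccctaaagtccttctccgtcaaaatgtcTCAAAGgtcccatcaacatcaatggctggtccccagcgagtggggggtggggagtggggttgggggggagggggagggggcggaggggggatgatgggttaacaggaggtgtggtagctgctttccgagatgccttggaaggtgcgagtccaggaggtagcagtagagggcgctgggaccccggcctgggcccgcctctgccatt
Wnt9a, chr11:59306680-59306929 (plus strand): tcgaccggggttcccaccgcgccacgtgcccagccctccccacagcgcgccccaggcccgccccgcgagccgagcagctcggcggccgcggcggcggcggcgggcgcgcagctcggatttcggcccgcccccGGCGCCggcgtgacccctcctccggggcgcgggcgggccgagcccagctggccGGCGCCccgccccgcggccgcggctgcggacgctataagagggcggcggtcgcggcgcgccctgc
Wnt4, chr4:137277385-137277634 (plus strand): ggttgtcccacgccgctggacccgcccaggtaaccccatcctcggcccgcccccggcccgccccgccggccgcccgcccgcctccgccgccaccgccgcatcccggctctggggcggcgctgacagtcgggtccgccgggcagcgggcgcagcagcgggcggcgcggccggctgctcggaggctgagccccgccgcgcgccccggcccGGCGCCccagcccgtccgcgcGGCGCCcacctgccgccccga
Fzd5, chr1:64737751-64738000 (minus strand): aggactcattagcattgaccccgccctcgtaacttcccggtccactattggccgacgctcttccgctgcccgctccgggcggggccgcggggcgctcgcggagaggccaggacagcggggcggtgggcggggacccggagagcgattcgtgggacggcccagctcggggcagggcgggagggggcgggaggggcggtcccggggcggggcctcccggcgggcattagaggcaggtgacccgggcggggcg
Motifs were searched on both strands. GGCGCC is a GC-rich sequence known to be bound by Smad1 and Smad5, and it reads the same on both strands. It occurred in 11 of the 33 module promoters, which belong to 11 of the 29 genes, and in 9.59% of all 32851 promoters of the same length. The median GC content was 68.0% in the 33 module promoters and 52.4% in all promoters. Among genes that passed the test below, 3 of 7 with an entry (Rspo1, Wnt4 and Wnt9a) held the motif, against 8 of the other 22. In the sequences above it starts 9 bases before the start site of Rspo1, 42 and 21 before that of Wnt4, and 118 and 65 before that of Wnt9a. The TCF/LEF core CTTTGA, or TCAAAG on the other strand, occurred in 4 of the 33 module promoters and in 13.8% of all promoters. The 4 belong to Fzd1, Ror1, Wnt11 and Wnt5b, and in Ror1 the match starts 205 bases before the start site. GACCACCC, the core of the Gli motif, occurred before 0 module genes and in 0.703% of all promoters. None of these matches was measured for binding, and the motifs do not overlap each other in the sequences shown.

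The array values are linear signals, scaled so that each array had a trimmed mean of 500, and an array had 22565 to 25013 probe sets at 100 or more. A gene was tested if its signal reached 100 on at least 3 of the 6 arrays, and groups were compared with limma on log2(signal + 32). A gene was called where its p, adjusted by Benjamini and Hochberg's method across the 11611 genes tested, lay under 0.05. Genotype was not the sole difference between groups: one was tissue kept in RNAlater and the other isolated cells of hormone-primed mice, and these factors cannot be told apart. In bulk samples like these, fewer cells of a type and less RNA per cell cannot be told apart. The tumors are described as independent and the wild-type samples as replicates, with nothing more on how samples of a group relate, so the p-values measure the spread between these samples, which may be technical in part. The brightest Smad1 and Smad5 probe sets read 829.6 to 925.7 and 1078 to 1273 in wild type against 2076 to 2861 and 2436 to 3108 in tumors, and the Smad9 probe set stayed at or below 95.4. No source used here places these probe sets inside or outside the mutated parts, so they do not check the labels. The log2 ratio of 3′ to 5′ control probe sets, a sign of RNA quality, was 0.447 ± 0.193 for Actb in wild type and 0.808 ± 0.209 in tumors (SD, n = 3), and -0.391 ± 0.0653 and -0.365 ± 0.113 for Gapdh. Its part in the results below was not tested.

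Tumors had higher signals of the ligand genes Wnt4, Wnt5a and Wnt9a, the R-spondin gene Rspo1, the receptor genes Ror1, Fzd1 and Fzd7, and the ligase gene Znrf3. The receptor gene Fzd5 was lower. Of the 43 genes, 26 were tested, 8 were called higher, 1 lower and 17 were not called. Over all genes tested, 14.5% were called higher and 12.6% lower, or 27.2% in either direction, against 30.8%, 3.85% and 34.6% of the tested module genes. The groups did not overlap in 12 module genes, 46.2% of those tested, beside 46.3% of all genes, so that share lay at the background. Tumors lay above in 9 of them and below in 3, where 23.7% and 22.6% of all genes did. The median log2 fold change was 0.19 in the tested module genes and -0.005 in all genes tested. 19 of the 26 reached 100 on all 6 arrays and 1, Wnt5b, on exactly 3, and 21 reached it on all 3 wild-type arrays. The calls of Fzd5, Fzd7, Ror1 and Wnt5a held in every fit without 1 array, while the count of higher genes fell to 3 when wild-type replicate 1 was left out and to 5 when replicate 3 was. With no filter on low signals Wnt9a, Fzd1 and Znrf3 were not called.

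**Figure D1:**
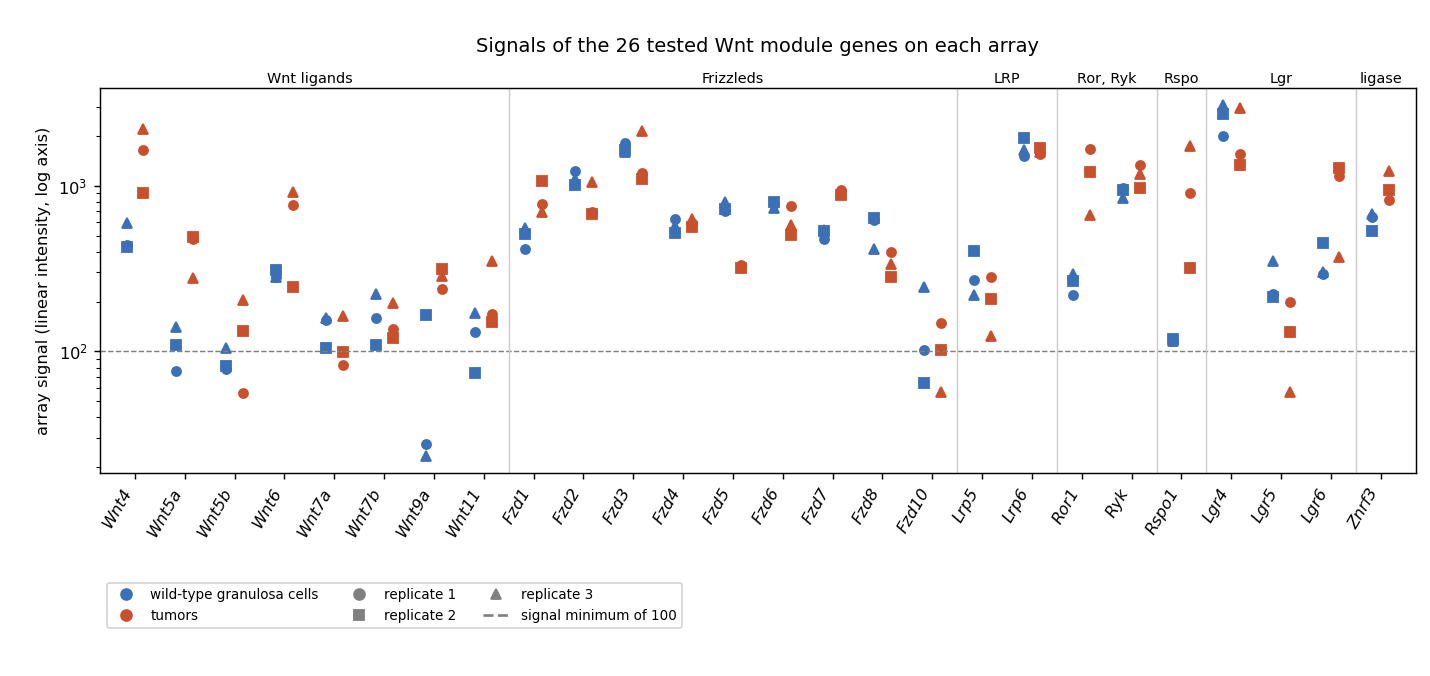
Signals of the 26 tested genes on each of the 6 arrays (log axis); blue points are wild-type samples, red points tumors, and the dashed line is the signal minimum of 100. In Wnt4, Wnt5a, Wnt9a, Rspo1, Ror1, Fzd1, Fzd7, Znrf3 and Ryk all 3 tumors lie above all 3 wild-type samples; heights of different genes come from different probes and are not comparable.

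The scale of the arrays matters for the smaller differences. Bacterial transcripts added before hybridisation gave brighter signals on the tumor arrays, and scaling to them moved the median of all genes to a log2 fold change of -0.98, with 416 genes higher and 7544 lower in place of 1686 and 1468. Under that scaling Rspo1 (1.57), Wnt9a (1.06) and Ror1 (0.99) were still called higher, Wnt4 (0.55) and Wnt5a (0.78) stayed positive without a call, and Fzd1 (-0.27), Fzd7 (-0.22) and Znrf3 (-0.36) changed sign. Relative to the shifted median, Fzd1, Fzd7 and Znrf3 were 0.71, 0.77 and 0.62 higher. Directions given below are relative to the bulk of genes on the array.

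Of 19 Wnt ligand genes, 8 were tested: 3 rose, 0 fell and 5 were not called. The share called was 37.5%, beside 27.2% of all genes tested, and rests on few genes. Wnt4 read 441.7, 427.9 and 599.7 in wild type against 1648, 901.3 and 2208 in tumors. Every tumor lay above every wild-type sample, and the highest tumor read 2.45 times the lowest. Tumors exceeded wild type by a log2 fold change of 1.56 with SE 0.32 (limma adjusted p = 0.0138, n = 3 per group). The other Wnt4 probe set read 228.0 to 388.5 in wild type and 480.2 to 979.1 in tumors, with the same tumor lowest and the same tumor highest. Its log2 fold change was 1.07 (limma adjusted p = 0.0359 when every passing probe set was tested). The Wnt4 call was lost without wild-type replicate 1 (limma adjusted p = 0.0554) and held in the other 5 fits without 1 array.

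Wnt5a encodes a ligand known mostly for signalling without beta-catenin, through Ror receptors among others. It read 76.0, 109.1 and 140.1 in wild type and 478.9, 493.2 and 278.6 in tumors. The groups did not overlap, and wild-type replicate 1 lay below the signal minimum. Tumors were higher by 1.66 on the log2 scale, with SE 0.27 (limma adjusted p = 0.00561), and by 1.93 and 1.29 with pseudocounts of 1 and 100. In another Wnt5a probe set the groups did not overlap either, tumors being higher, with a log2 fold change of 1.06 that was not called (limma adjusted p = 0.069). The last passing one read 24.4 to 81.3 in wild type and 158.7 to 245.3 in tumors. It passed the filter through the tumors alone, so its difference is a description and no support.

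Wnt9a read 27.7, 165.7 and 23.5 in wild type and 236.9, 315.1 and 286.6 in tumors. The tumors were close to each other and above all wild-type samples, of which only replicate 2 reached 100. The log2 fold change of 1.83 with SE 0.47 (limma adjusted p = 0.0272) became 2.51 with a pseudocount of 1 and 1.23 with 100. Without wild-type replicate 2 the change was 2.43 (limma adjusted p = 0.00227), and the call was lost without any other array, with adjusted p up to 0.0933. Its other probe set stayed at or below 62.9 on every array.

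Wnt6 encodes a ligand whose tumor values were far apart. It read 282.1, 309.2 and 281.5 in wild type against 763.2, 245.8 and 922.4 in tumors, so that tumor 2 lay below all wild-type samples and the other tumors well above them. The log2 fold change of 0.88 with SE 0.43 was not called (limma adjusted p = 0.173), while without tumor 2 it was 1.43 (limma adjusted p = 0.00449). No other fit without 1 array called Wnt6. The other passing Wnt6 probe set also had its lowest tumor value in tumor 2, at 50.9 beside 119.8 and 164.3. Wnt11, Wnt5b, Wnt7a and Wnt7b had log2 fold changes of 0.66, 0.33, -0.24 and -0.08, with overlapping groups, signals between 55.8 and 352.6, and limma adjusted p-values from 0.198 to 0.844.

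Of 10 Frizzled genes, 9 were tested: 2 rose, 1 fell and 6 were not called. The share called was 33.3%, beside 27.2% of all genes tested, and rests on few genes. Fzd5, a receptor used in beta-catenin signalling, read 699.3, 727.1 and 792.2 in wild type and 334.1, 320.0 and 322.1 in tumors. Its groups were far apart and tight, with SDs of 47.7 and 7.60. Fzd5 fell with a log2 fold change of -1.11 with SE 0.13 (limma adjusted p = 0.00197), from -1.15 to -1.06 over the fits without 1 array, and the call held under all 17 alternatives. Fzd7 went the other way with the same tightness. It read 480.0, 530.7 and 540.7 in wild type against 944.8, 882.1 and 912.7 in tumors, a log2 fold change of 0.78 with SE 0.13 (limma adjusted p = 0.00682), and it was called in the same direction under every alternative except scaling to the hybridisation controls, where its sign turned.

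Fzd1 read 415.2, 510.4 and 555.8 in wild type and 774.9, 1061 and 695.2 in tumors, without overlap. The log2 fold change of 0.72 with SE 0.20 passed narrowly (limma adjusted p = 0.0365). Its sign turned under scaling to the hybridisation controls, and the call was lost without any array except tumor 3 (limma adjusted p of 0.132 at most). The dimmer Fzd1 probe set had a log2 fold change of 0.46 (limma adjusted p = 0.132).

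The remaining Frizzled genes were not called. Fzd8 read 618.6, 639.9 and 415.4 in wild type and 398.8, 280.3 and 335.7 in tumors, all tumors below all wild-type samples (log2 fold change -0.66, SE 0.21, limma adjusted p = 0.058). It passed without wild-type replicate 3 (limma adjusted p = 0.038) and with a signal minimum of 200 (limma adjusted p = 0.0454). In the other fits without 1 array Fzd8 was not called. Fzd2 read 1231, 1015 and 1091 in wild type against 698.5, 674.7 and 1060 in tumors, and Fzd3 read 1802, 1634 and 1592 against 1188, 1094 and 2134. In these brightest probe sets tumor 3 stood apart from the other tumors, within the wild-type range for Fzd2 and above it for Fzd3. Without tumor 3, the array that opposed the differences, Fzd2 (log2 fold change -0.67, limma adjusted p = 0.0247) and Fzd3 (-0.54, limma adjusted p = 0.0405) were called lower. Neither was called in any other fit without 1 array. With all 6 arrays the values were -0.47 (SE 0.20, limma adjusted p = 0.135) and -0.25 (SE 0.26, limma adjusted p = 0.513). The dimmer passing Fzd3 probe sets placed tumor 3 between the other tumors, at 414.7, 207.9 and 163.35. At 414.7 and 163.35 it lay below every wild-type sample, and at 207.9 within their range. Tumors differed there by -0.54, -0.43 and -0.74 on the log2 scale, without a call (limma adjusted p of 0.0575 at least). In the dimmer Fzd2 probe sets tumor 3 read highest of all arrays.

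Fzd4, the receptor of corpus luteum formation, read 626.7, 521.0 and 567.8 in wild type and 592.9, 561.5 and 631.1 in tumors. The groups overlapped almost fully, with a log2 fold change of 0.06 with SE 0.14 (limma adjusted p = 0.794). Its other passing probe set, at 391.1 to 795.6 in wild type and 391.9 to 470.8 in tumors, pointed the other way (-0.48, limma adjusted p = 0.225). Fzd6 read 779.3, 797.1 and 732.7 against 758.3, 506.7 and 578.8 (log2 fold change -0.33, SE 0.18, limma adjusted p = 0.208). Fzd10, whose signals ranged from 56.99 to 246.2, had a log2 fold change of -0.25 with SE 0.42 (limma adjusted p = 0.695).

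**Figure D2:**
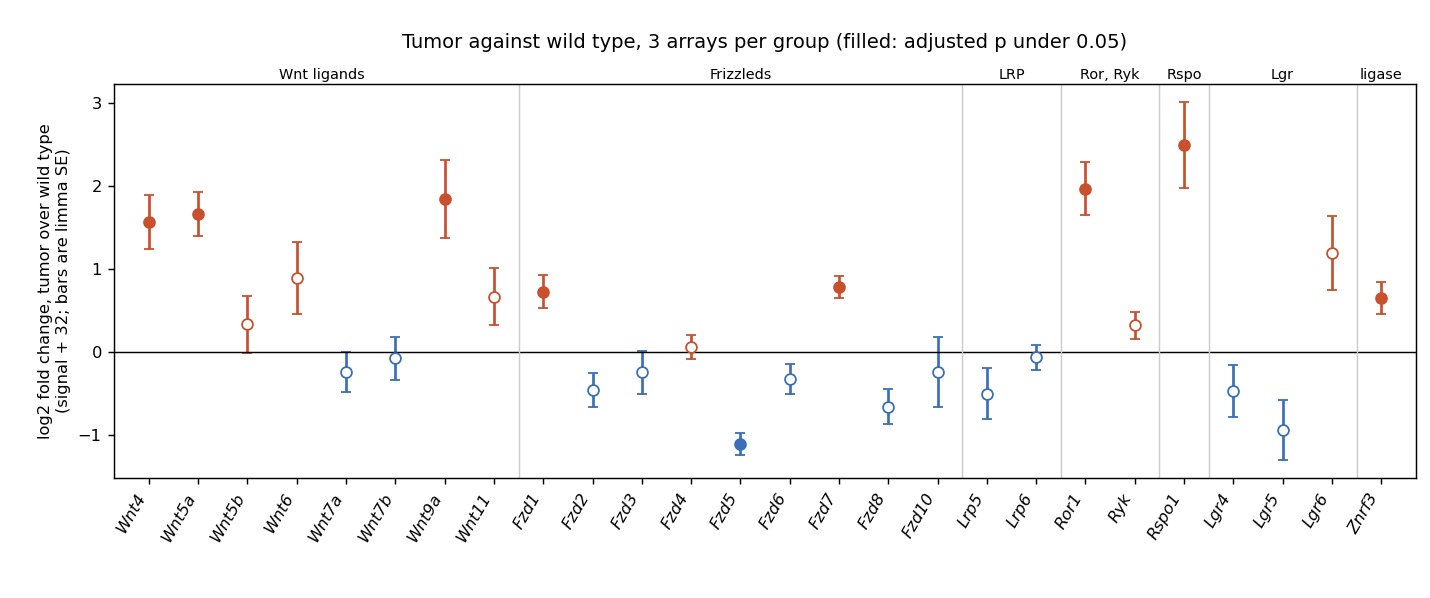
Log2 fold change of tumor over wild type on the log2(signal + 32) scale for the 26 tested genes, grouped by role, with limma's SE as bars; filled points passed an adjusted p of 0.05. The filled points run from Fzd5 at -1.11 to Rspo1 at 2.49, and those of Fzd1, Fzd7 and Znrf3 turn negative under scaling to the hybridisation controls.

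The LRP co-receptor genes, needed by every Frizzled for beta-catenin signalling, were not called. Lrp6 read 1506, 1946 and 1636 in wild type and 1545, 1692 and 1594 in tumors, with all tumors inside the wild-type range (log2 fold change -0.07, SE 0.15, limma adjusted p = 0.776). Lrp5 ranged from 219.8 to 405.2 in wild type and from 124.0 to 279.9 in tumors (log2 fold change -0.50, SE 0.31, limma adjusted p = 0.258).

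Ror1 encodes a receptor of the tyrosine kinase-like family that binds Wnt5a. It read 218.0, 267.7 and 295.1 in wild type and 1659, 1207 and 663.5 in tumors. The lowest tumor was more than double the highest wild-type sample, and the tumors themselves differed by a factor of 2.50. Ror1 was higher by 1.96 on the log2 scale, with SE 0.32 (limma adjusted p = 0.00593), from 1.68 to 2.32 over the fits without 1 array, and it was called under all 17 alternatives. The 2 dimmer Ror1 probe sets did not reach the filter; their tumor values were 75.3 to 245.0 and 93.9 to 183.3, beside 33.6 to 94.5 and 43.4 to 98.9 in wild type. Ryk, a Wnt receptor with an inactive kinase domain, read 971.3, 943.3 and 841.9 in wild type and 1330, 975.4 and 1175 in tumors. All tumors lay above all wild-type samples, though tumor 2 by very little, and the difference was not called (log2 fold change 0.32, SE 0.16, limma adjusted p = 0.19).

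Rspo1 was the tested R-spondin gene. It read 115.2, 118.9 and 116.4 in wild type, just above the signal minimum, and 905.4, 320.9 and 1737 in tumors. All tumors were higher, and the highest tumor read 5.42 times the lowest. The log2 fold change of 2.49 with SE 0.52 (limma adjusted p = 0.0141) had the same tumor order as that of Wnt4 and Wnt6. It was 2.76 with a pseudocount of 1 and 2.08 with 100, and the call was lost without wild-type replicate 1 (limma adjusted p = 0.0507).

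The R-spondin receptor genes were not called as measured on all arrays. Lgr4 read 1998, 2717 and 3052 in wild type and 1547, 1341 and 2937 in tumors, where tumor 3 lay among the wild-type values and the other tumors below them. Its log2 fold change was -0.47 (SE 0.31, limma adjusted p = 0.30), and -0.81 without tumor 3 (limma adjusted p = 0.0399). Lgr6 showed the reverse arrangement. It read 291.7, 451.6 and 302.4 in wild type and 1145, 1285 and 371.7 in tumors, with tumor 3 inside the wild-type range. The log2 fold change of 1.19 with SE 0.45 (limma adjusted p = 0.089) became 1.73 without tumor 3 (limma adjusted p = 0.00407). The other passing Lgr6 probe set read 262.4 to 326.4 in wild type and 532.9, 487.0 and 365.0 in tumors, again with tumor 3 lowest. Lgr5, also known as a target of Wnt signalling, read 221.6, 212.9 and 352.0 in wild type and 198.4, 130.6 and 56.6 in tumors. All tumors lay below all wild-type samples (log2 fold change -0.95, SE 0.36, limma adjusted p = 0.0933), and the difference passed without tumor 1 (limma adjusted p = 0.0414). Lgr4, Lgr6 and Lgr5 were called in no other fit without 1 array.

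Znrf3, the ligase that removes Frizzleds, read 651.4, 534.3 and 671.4 in wild type and 822.4, 941.8 and 1226 in tumors, without overlap. Its log2 fold change of 0.65 with SE 0.19 (limma adjusted p = 0.0431) lay next to the threshold. The call was lost without any array except tumor 1 (limma adjusted p of 0.117 at most), and the sign turned under scaling to the hybridisation controls.

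For 17 genes the signal did not reach 100 on 3 arrays, so they were not tested: 11 Wnt genes (Wnt1, Wnt2, Wnt2b, Wnt3, Wnt3a, Wnt8a, Wnt8b, Wnt9b, Wnt10a, Wnt10b and Wnt16), Fzd9, Rspo2, Rspo3, Rspo4, Ror2 and Rnf43. Their signals ran from 2.30 to 147.6, and 11 of them reached 100 on no array after scaling; Wnt10b came within rounding of 100 on 1. Ror2, the other Wnt5a receptor of its family, read 34.8, 18.2 and 12.6 in wild type and 138.5, 118.5 and 41.5 in tumors. Rspo3 read 3.50, 28.9 and 54.7 against 141.0, 98.6 and 62.6. In both genes the tumors lay above the wild-type samples and the highest values barely passed the minimum. In a limma fit with no filter, 0 of the 17 were called and 3 had an unadjusted p under 0.05: Ror2 (0.0108), Rspo3 (0.0176) and Wnt10b (0.0286), the last with lower tumor signals. At this brightness a difference in these genes was not measurable with confidence.

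Rspo1, Lrp5 and Wnt11 were measured by 1 probe set each, so no other could be compared. More than 1 passing probe set measured 12 of the tested genes. In 10 of them all passing probe sets had the same sign, and in Fzd4 and Lrp6 they did not.

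**Figure D3:**
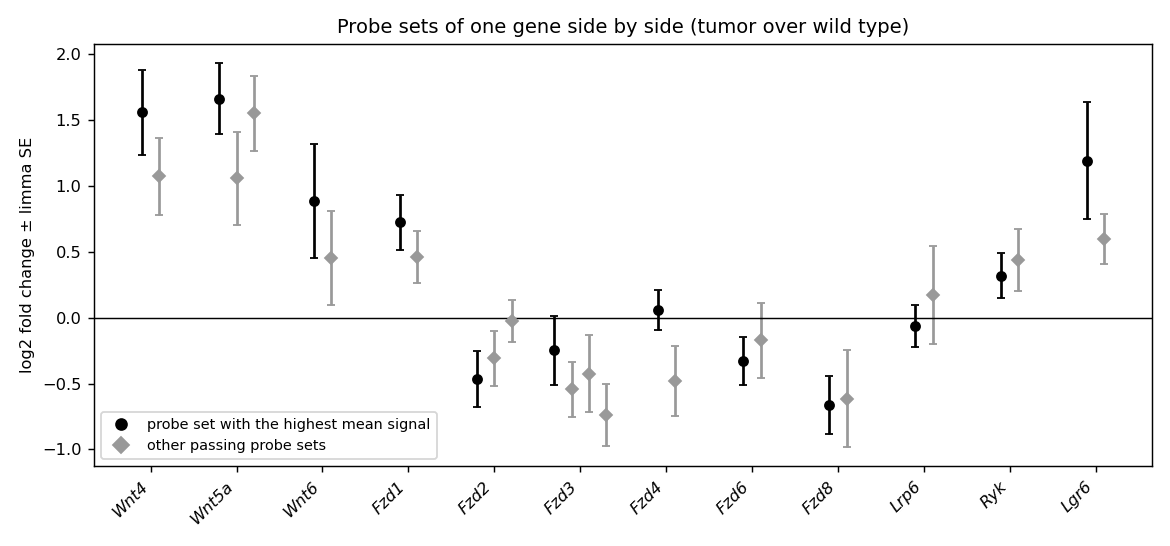
Log2 fold change (tumor over wild type, with limma's SE) of every passing probe set of the 12 genes that had more than 1; black circles are the probe sets that stand for the genes and grey diamonds the others. The probe sets of Wnt4, Wnt5a, Wnt6, Fzd1, Ryk and Lgr6 all lie above 0, those of Fzd2, Fzd3, Fzd6 and Fzd8 all below it, and those of Fzd4 and Lrp6 on both sides.

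The tumors differed among themselves. The SD over tumors exceeded that over wild-type samples in 18 of the 26 tested module genes, 69.2%, beside 61.5% of all genes tested. The median SD of log2 values was 0.42 in tumors and 0.20 in wild type for the module, and 0.24 and 0.19 for all genes. Highest in tumor 3 and lowest in tumor 2 were 9 of the 26 tested genes: Rspo1, Wnt4, Wnt6, Wnt7b, Wnt11, Fzd2, Fzd3, Fzd4 and Lgr4. Tumor 3 had 3.57 more log2 units of Rspo1 than the wild-type mean, against 1.25 in tumor 2, and for Wnt4 the values were 2.12 and 0.85. Lowest in tumor 3 were 7 of the 26: Ror1, Wnt5a, Fzd1, Fzd10, Lgr5, Lgr6 and Lrp5. There Ror1, Wnt5a and Lgr6 stood 1.26, 1.17 and 0.11 above the wild-type mean, against 2.09, 1.93 and 1.82 in tumor 2. Fzd5 and Fzd7 hardly varied, at -1.07 to -1.13 and 0.74 to 0.83. These orders are those of the brightest probe sets. Other passing probe sets of Fzd1, Fzd2, Fzd3 and Fzd4 had different orders, while those of Wnt4 and Wnt6 kept theirs. Those of Wnt5a and Lgr6 kept tumor 3 lowest, but tumors 1 and 2 changed places in the Lgr6 one and a Wnt5a one. The share of all genes tested with each order is not given here, so the counts do not set the module apart. With 3 tumors, none of these orders can be tested.

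Markers of several other cell types differed between the groups. Over all genes tested, 14.5% were called higher and 12.6% lower, or 27.2% in either direction. The share called among surface epithelium genes, 10%, lay below that. Of 10 fibroblast and matrix genes 8 were higher and 1 lower in tumors, and all 9 tested of 10 smooth muscle and pericyte genes, 6 of 10 endothelial genes and all 9 macrophage genes were higher. Of 9 granulosa genes 1 was higher and 3 lower, of 10 ovarian surface epithelium genes 0 and 1, and of 7 tested oocyte genes 0 and 6. Of 6 theca and interstitial genes 3 were higher and 1 lower. Some of these genes passed the filter only through the group where they are bright, so that a difference was bound to appear: in 4 of the 6 lower oocyte genes (Zp1, Zp2, Zp3 and Dppa3) every tumor lay below 100, and in Des, Vwf and Gli1 every wild-type sample did. The same holds for Ptprc, the 1 tested of 6 lymphocyte genes, which was higher. The highest signals of the others were 161.3 for Cd3g, 148.0 for Cd79a, 100.9 for Cd79b, 61.0 for Cd3e and 25.2 for Cd2. The summed smooth muscle signal ran from 5601 to 7177 in wild type and stood at 37060, 38310 and 20660 in tumors 1, 2 and 3. The summed fibroblast signal ran from 23500 to 27290 in wild type and stood at 63120, 69650 and 47080. The granulosa sum ran from 137400 to 154000 in wild type and stood at 84610, 76880 and 68380, and the surface epithelium sum ran from 4391 to 6410 and stood at 4838, 5635 and 2944. These 4 of the 9 marker sums were lowest in tumor 3. The theca and interstitial sum was 54690 to 66040 in wild type and 41530, 35240 and 85010 in tumors, and the oocyte sum 1247 to 2007 and 676.1, 477.5 and 872.3. Both were highest in tumor 3 and lowest in tumor 2. The brightest genes set such a sum. In tumor 3 Hsd3b1, Ptch1 and Aldh1a1 read 43120, 27110 and 12460 of the theca and interstitial sum. Cyp17a1, the lower gene of that list, read 2179 to 5950 in wild type. Its tumor values were 289.9, 100.6 and 29.45, lowest in tumor 3. Macrophage sums ran from 2097 to 2565 in wild type and from 13320 to 15990 in tumors, endothelial sums from 2065 to 2675 and from 6423 to 13590 and lymphocyte sums from 180.1 to 227.5 and from 492.2 to 1146. The part of these cell types in the differences of the Wnt genes was not tested.

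**Figure D4:**
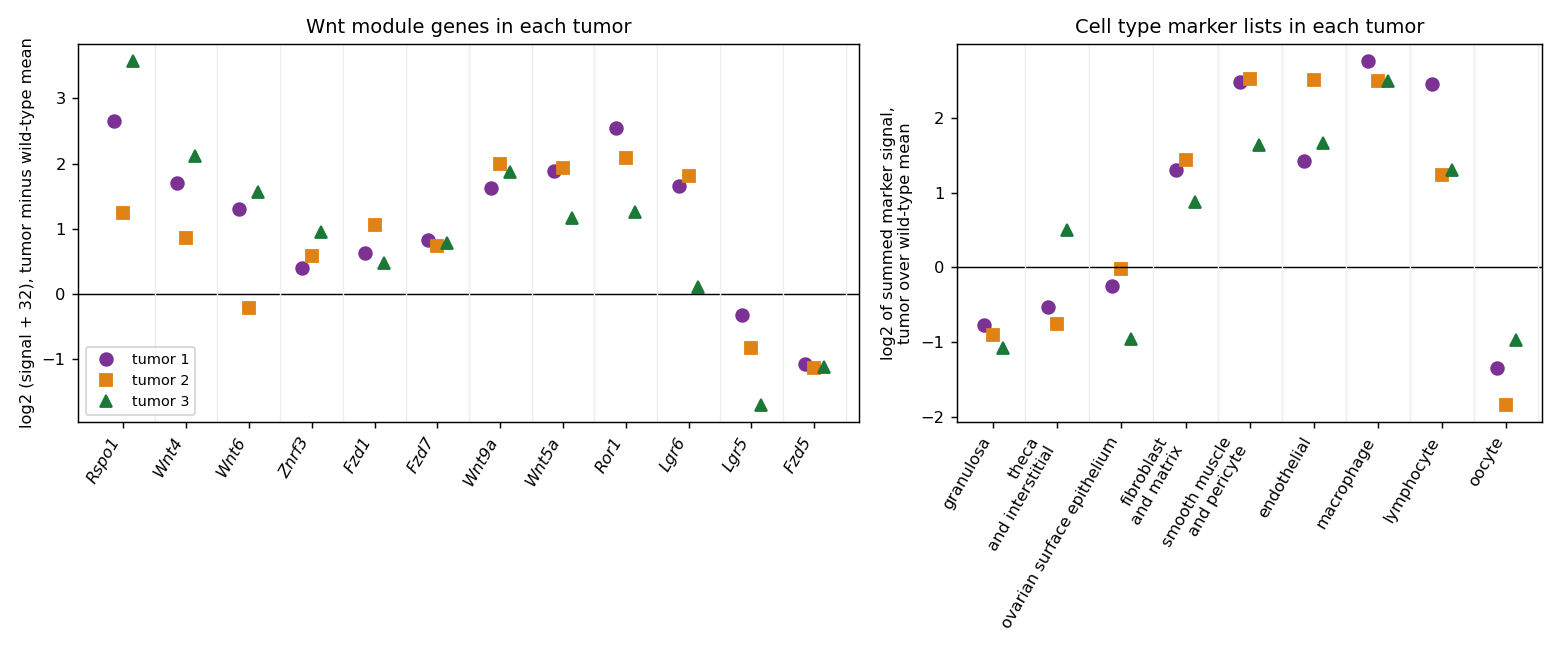
Left, log2(signal + 32) of each tumor minus the wild-type mean for 12 module genes; right, log2 of the summed marker signal of each tumor over the wild-type mean for 9 cell type lists (symbols mark tumors 1 to 3). Tumor 3 is highest for Rspo1, Wnt4 and Wnt6 and lowest for Ror1, Wnt5a and Lgr6, and its smooth muscle sum lies 1.65 log2 units above wild type against 2.49 and 2.54 in the other tumors. The fibroblast, granulosa and surface epithelium sums are lowest in tumor 3 too.

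The rest of the pathway was described by lists of genes, of which 44.4% of the tested secreted inhibitors, 27.3% of the intracellular genes, 50.0% of the feedback targets and 25.0% of the planar polarity genes were called in either direction, beside 27.2% of all genes tested. The intracellular and planar polarity shares lay near that background, and each list is short. Both genes of Wnt secretion were uncalled; Wls, which carries Wnt proteins to the cell surface, had means of 1894 ± 158 in wild type and 1964 ± 188 in tumors (SD, n = 3), a log2 fold change of 0.05 with SE 0.15 (limma adjusted p = 0.825). Of 9 tested secreted inhibitors and their receptors, 2 rose, 2 fell and 5 were not called, with a median log2 fold change of 0.42. Igfbp4, whose protein can bind Wnt co-receptors, went from 2159 ± 41.6 to 6413 ± 968 (log2 fold change 1.55, SE 0.16, limma adjusted p = 0.00129), and under scaling to the hybridisation controls the change was 0.51 without a call. Frzb, a Frizzled-related decoy, went from 951 ± 484 to 270 ± 163 (log2 fold change -1.80, SE 0.53, limma adjusted p = 0.0443). The Frzb call was lost without any array except tumor 2, with adjusted p up to 0.125. The decoy gene Sfrp4 fell as well (limma adjusted p = 0.0403), a call lost without any wild-type replicate or tumor 2. With a pseudocount of 1 or with no filter neither Frzb nor Sfrp4 was called. Another 10 genes of that list, among them Dkk1, Dkk2, Wif1 and Notum, were not tested for low signal.

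Among 22 tested genes of intracellular transduction, 5 rose, 1 fell and 16 were not called, with a median log2 fold change of 0.10. Tcf7l1, a TCF factor that mostly represses, read 733.7, 547.2 and 724.9 in wild type and 1511, 1756 and 1294 in tumors (log2 fold change 1.15, SE 0.18, limma adjusted p = 0.00573). Tle2, a co-repressor of TCF factors, read 1220, 1476 and 954.6 against 467.8, 205.3 and 507.6 (log2 fold change -1.62, SE 0.34, limma adjusted p = 0.0137), a call lost without wild-type replicate 1 (limma adjusted p = 0.0515). The other Tle genes of the list did not fall with Tle2. Tle1 (log2 fold change 1.10, SE 0.19, limma adjusted p = 0.00769) and Tle4 (0.98, SE 0.25, limma adjusted p = 0.0275) were called higher. Tle3 was not called (-0.009, SE 0.19, limma adjusted p = 0.978). The count of 5 higher genes in this list became 2 without wild-type replicate 1, 3 without wild-type replicate 3 and 3 with no filter. Of 10 tested feedback targets, 5 rose, 0 fell and 5 were not called, with a median log2 fold change of 0.70; Znrf3 and Lgr5 stand on this list too, as does the untested Rnf43. The count of 5 higher genes became 2 when wild-type replicate 1 was left out. Nkd1, an inhibitor induced by Wnt signalling, read 104.1, 34.5 and 73.0 in wild type and 254.8, 160.0 and 329.4 in tumors (log2 fold change 1.46, SE 0.33, limma adjusted p = 0.0175). Ccnd1, the cyclin D1 gene, read 331.5, 218.6 and 316.0 against 584.2, 629.4 and 950.9 (log2 fold change 1.22, SE 0.24, limma adjusted p = 0.011). The calls of Nkd1 and Ccnd1 held in each fit without 1 array. Under scaling to the hybridisation controls Tcf7l1, Nkd1 and Ccnd1 stayed positive at 0.13, 0.64 and 0.24 without a call.

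Planar polarity is a Wnt branch without beta-catenin, though genes listed for it need not act there alone. Of 12 tested planar polarity genes, 2 rose, 1 fell and 9 were not called, with a median log2 fold change of 0.10. Daam2, a formin, and Dact1, a Dishevelled-binding protein, had log2 fold changes of 0.83 (SE 0.19, limma adjusted p = 0.0192) and 0.76 (SE 0.20, limma adjusted p = 0.0301), and both turned negative under scaling to the hybridisation controls. Ptk7, a co-receptor of that branch, had a log2 fold change of -0.63 with SE 0.17 (limma adjusted p = 0.0315). Daam2 lost its call without either of wild-type replicates 1 and 3 or tumors 1 and 2, Dact1 without wild-type replicates 1 or 3 or tumors 1 or 3, and Ptk7 without any array except tumor 1. With no filter neither Dact1 nor Ptk7 was called.

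**Figure D5:**
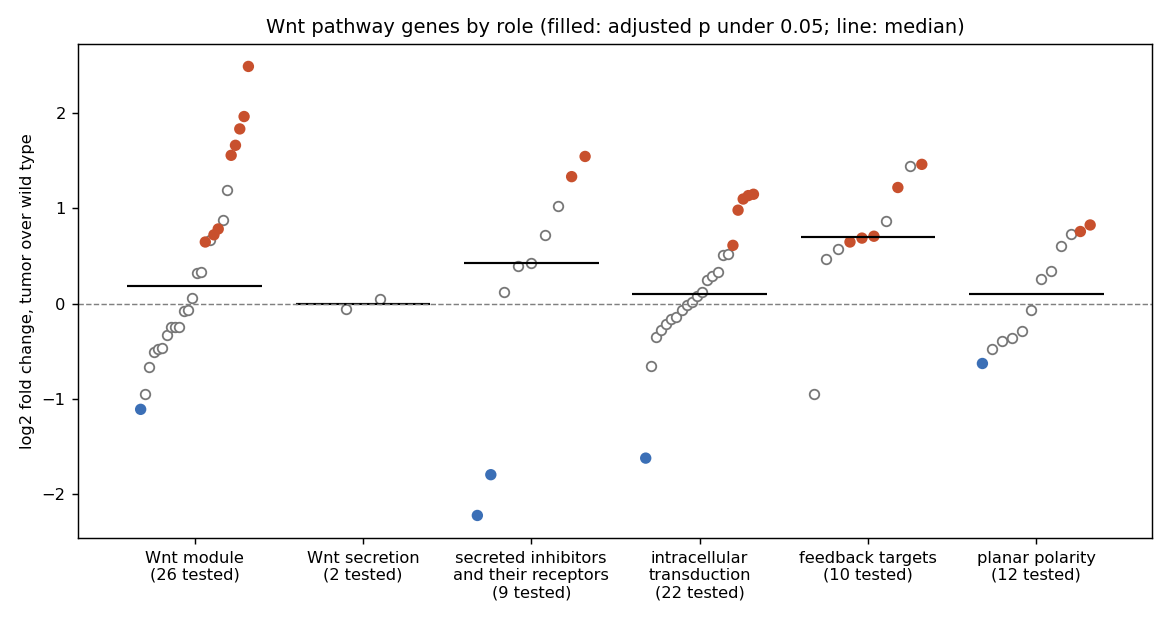
Log2 fold change of tumor over wild type for each tested gene of the Wnt module and of 5 lists of other Wnt pathway genes; filled points passed an adjusted p of 0.05 and black lines are medians. The medians are 0.19 for the module, 0.42 for the secreted inhibitors, 0.10 for intracellular transduction, 0.70 for the feedback targets and 0.10 for planar polarity, on the deposited scale of the arrays.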

How the data were processed

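Total RNA of 3 wild-type granulosa cell samples and 3 tumors was hybridised to 1 Affymetrix array each. The authors deposited linear intensities, 1 for each probe set on each array. MAS5 made those of wild-type arrays and GCOS those of tumor arrays, per the submitters' processing notes, with no version stated. Groups and software therefore cannot be told apart. Each array was scaled again to a trimmed mean of 500 (2% left out at each end), which changed almost nothing. Of 45101 probe sets, 34945 carried 1 gene symbol in GEO's platform annotation, 932 several, 9160 none and 64 were controls; 34741 of those with 1 symbol had an identifier in the RefSeq gene table of GRCm38.p6, which changed 0 symbols. A gene was tested where a probe set reached 100 on at least 3 arrays, and the brightest passing probe set stood for it. The comparison used limma 3.58.1 under R 4.3.3, with lmFit and eBayes and 2-sided p-values, on log2(signal + 32), a scale that understates the change of dim genes, and the threshold was 0.05 after Benjamini-Hochberg adjustment; SE is limma's. The fit was tested on simulated data.  Tables and figures were made with Python 3.11.15, pandas 2.3.3 and matplotlib 3.10.9.

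The members and all gene lists were chosen with earlier results of these data known. Every module gene is accounted for; values of all arrays are given for called genes and those with a mean of at least 500 in either group. From each pathway list the 2 called genes with the largest change and the largest change in the other direction are named, or, with 0 called, the gene with the smallest p; other named genes were chosen after their values were seen. Alternatives covered the pseudocount, the filter, the scaling, the choice of probe set, the variance model, the replicate number as a block and leaving out each array. A call found only without the array that ran most against the difference is a description and no support. The number of arrays limits the precision.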

Additional observations from a re-analysis of the deposited data

How the results depend on the processing

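The module's counts of 8 higher and 1 lower gene stayed within 1.5 times under most of 17 alternatives. With no filter on low signals 5 were higher, and with a signal minimum of 200 there were 2 lower. Scaling to the hybridisation controls gave 3 higher and 13 lower module genes, and 416 higher and 7544 lower over all genes; the bright controls on the tumor arrays make this shift by construction. Without 1 array the counts ran from 3 to 7 higher and from 1 to 4 lower module genes, and from 866 to 1704 and from 662 to 1409 over all genes. With the replicate number as a block, 6 module genes were higher and 1 lower, and 1464 and 1138 of all genes; Fzd1, Znrf3 and Dact1 lost their calls (limma adjusted p = 0.0559, 0.0574 and 0.0683). Same-numbered samples did not deviate together more than others (r = -0.045, 0.028 and 0.09 across genes, beside -0.145 to 0.133 in the other pairs). Deviations within 3 arrays per group cannot show whether same-numbered samples shared any handling. Signs turned under scaling to the hybridisation controls for Fzd1 (-0.27), Fzd4 (-0.94), Fzd7 (-0.22), Ryk (-0.70), Wnt11 (-0.21), Wnt5b (-0.49), Wnt6 (-0.078), Znrf3 (-0.36), Wls (-0.98), Daam2 (-0.16) and Dact1 (-0.23), with the mean over probe sets for Fzd4 (-0.21), Lrp6 (0.053) and Wls (-0.10), and without 1 array for Fzd10 (-0.583 to 0.184), Fzd4 (-0.005 to 0.121), Lrp6 (-0.146 to 0.035), Wnt7b (-0.290 to 0.132) and Wls (-0.001 to 0.131). Of these, Fzd1, Fzd7, Znrf3, Daam2 and Dact1 had been called. Quantile normalization cost only the Znrf3 call (limma adjusted p = 0.0517) among module genes. The causes were not tested.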
